A study of Mus musculus with 12 samples.

Results

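The astrocyte and reactive astrocyte genes described here are *Gfap*, *Vim*, *Serpina3n*, *Lcn2*, *Aqp4*, *S100b*, *Slc1a2*, *Slc1a3*, *Gja1* and *Aldh1l1*. They were taken by name, as every non-control probe whose gene name in the array's annotation equals 1 of these symbols, which gave 10 of the 29608 gene names on the array, with 16 of 39429 probes and 25 of 43020 probe spots. Hippocampal RNA of 12 adult female mice, about 12 weeks old, was hybridized to 6 Agilent arrays of 60-base probes, 4 mice of each strain. MRL/lpr mice have a *Fas* gene that has lost its function, and a lupus-like disease. The Fn14ko-labelled mice (Fn14koMRL in the labels) are MRL/lpr mice that also lack *Tnfrsf12a*, the gene of the TWEAK receptor Fn14, in every cell, so they carry the *Fas* mutation too. MRL/+ mice (labelled MRL/MpJ) have the MRL background with neither change, and came from another source. Each array took 2 mice of the same strain, the odd replicate in Cy3 and the even in Cy5. A strain's 2 arrays had a slide to themselves, so slide and strain cannot be told apart. The free-text descriptions mention cortex, whereas source and tissue give hippocampus for all 12 samples.

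Astrocytes buffer potassium, clear glutamate from synapses and contact blood vessels with their end-feet. When the brain is injured or inflamed they become reactive: their intermediate filaments, made of glial fibrillary acidic protein and vimentin, increase, and they release acute-phase proteins such as lipocalin 2 and the protease inhibitor encoded by *Serpina3n*. In the hippocampus, the transporters GLT-1 and GLAST, encoded by *Slc1a2* and *Slc1a3*, take up most of the released glutamate. *Vim* is also made by endothelial and ependymal cells, and *Lcn2* by neutrophils and endothelium.

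Levels are given as multiples of the channel's median, taken over the spots that were valid in all 12 samples, and the local background was subtracted. A spot was valid when its foreground was at least 2 times its background and it carried no outlier flag. *Gfap*, *Aqp4*, *Slc1a2*, *Slc1a3* and *Aldh1l1* have such a spot and were tested among 8864 genes. *Vim*, *Serpina3n*, *Lcn2*, *S100b* and *Gja1* have none, so they passed no filter and were taken from a fit of all 29608 genes. MRL/lpr replicates 3 and 4 shared an array that stands apart from the others: the ratio of foreground to background had a median of 1.93 and 1.73 on it, beside 4.42 to 12.6 on the others, and 25.2% and 19.6% of its probe spots were well above background, compared with 29.6% to 68.1%. The 2 Cy5 samples of MRL/+ were the next dimmest, with 29.6% and 31.8%. The comparisons were therefore also made in the 10 samples outside the weak array, among 17936 genes, where all 10 astrocyte genes are valid. Of the 10, 9 were well above background in at least 10 of the 12 samples, and of 20 other genes of resting astrocytes 19 were. MRL/lpr is then 2 mice on 1 array, so that array and strain cannot be told apart for it.

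The probe for *Tnfrsf12a*, at chr17:23812746-23812805 (mm9, minus strand), was well above background in all 4 Fn14ko-labelled mice. The part of the gene that was removed is not given in the sources used here, so the probe cannot settle the label. Its level was 0.177, 0.160, 0.189 and 0.151 in the Fn14ko-labelled mice, 0.439, 0.307, 0.241 and 0.247 in MRL/lpr, and 0.283, 0.629, 0.503 and 0.502 in MRL/+. The Fn14ko-labelled mice were below all 8 others. Set against MRL/+, the Fn14ko-labelled mice gave a log2 fold change of -1.45 (SE 0.32, adjusted p = 0.0972 from limma), and it was -1.201 (adjusted p = 0.00469) without the weak array. With each channel scaled to the median of all its probe spots it was -0.53, and MRL/lpr then lay below the Fn14ko-labelled mice, with a log2 difference of -0.63. *Fas* was at 0.0384, 0.0281, 0.0538 and 0.253 in MRL/lpr, 0.0467, 0.0415, 0.0571 and 0.0563 in the Fn14ko-labelled mice, and 0.0983, 0.226, 0.0487 and 0.213 in MRL/+, and its groups overlapped.

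The array holds 3 probes each for *Gfap* and *Slc1a2*. They are shown because the result for each gene depends on which of its probes is read. The first 30 of 60 bases are printed, and the files do not give the exon or untranslated region in which a probe lies.
Gfap A_52_P52303, transcript variant 1, chr11:102751813-102751872 (mm9, minus strand): ggttatattaacagagctagcctatgctaa
Gfap A_55_P2157245, transcript variant 1, chr11:102752726-102752785 (mm9, minus strand): caaaaggctcacaatacaagttgtcccaat
Gfap A_55_P2157250, transcript variant 2, chr11:102748864-102748923 (mm9, minus strand): tttgaggaactgaaacgtgttgtgttcaag
Slc1a2 A_55_P1955412, transcript variant 4, chr2:102617752-102617811 (mm9, plus strand): aagcaactctaatcagtgtgtctatgccgc
Slc1a2 A_55_P2136847, transcript variant 1, chr2:102622252-102622311 (mm9, plus strand): gtagaatgtttcagagtttcatgggtgccc
Slc1a2 A_55_P2392625, transcript variant 1, chr2:102626380-102626439 (mm9, plus strand): aacccagtttccagcattcagacatcagta

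*Gfap*, which encodes the main intermediate filament protein of astrocytes, rose in MRL/lpr against both other strains. MRL/lpr replicates 1 to 4 had levels of 3.02, 3.24, 2.82 and 3.47 times the channel median, compared with 1.91, 0.938, 1.14 and 0.998 in the Fn14ko-labelled mice and 1.06, 0.371, 0.994 and 0.463 in MRL/+. All 4 MRL/lpr mice lay above all 8 others, and the other strains overlapped each other. Mean and SD were 3.14 ± 0.28 in MRL/lpr, 1.25 ± 0.451 in the Fn14ko-labelled mice and 0.722 ± 0.355 in MRL/+ (n = 4 each). Against MRL/+ the log2 fold change was 2.26 (SE 0.30, 4.79-fold, adjusted p = 0.00296 from limma). The exact permutation p was 0.0286, the smallest that 4 mice against 4 allow. Against the Fn14ko-labelled mice it was 1.39 (SE 0.30, 2.62-fold, adjusted p = 0.0329 from limma; exact permutation p = 0.0286). The Fn14ko-labelled mice against MRL/+ differed by 0.87 (SE 0.30, adjusted p = 0.179 from limma). In RNA of whole tissue, fewer cells of a type and less RNA per cell cannot be told apart, here and for every gene below.

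The mean of *Gfap* was 3.15 in the weak array and 3.13 in the other MRL/lpr array, but each is an average of 2 probes that differed in opposite directions: in the weak array 1 was higher and the other lower than in the other array. Without the weak array the log2 fold change was 2.32 (adjusted p = 0.00136 from limma) against MRL/+ and 1.32 (adjusted p = 0.0331) against the Fn14ko-labelled mice, and it was 1.00 (adjusted p = 0.0270) between the Fn14ko-labelled mice and MRL/+. Within the Cy3 mice alone *Gfap* was 2.84-fold higher in MRL/lpr than in MRL/+, and within the Cy5 mice 8.08-fold. Against the Fn14ko-labelled mice these values were 1.98-fold and 3.47-fold. In MRL/+ the Cy3 mice read 2.48 times the Cy5 mice. With array as a random block, which takes the 2 mice of an array as related, both calls of *Gfap* were lost (adjusted p = 0.207 and 0.279 from limma). With the replicate number as a block the call against the Fn14ko-labelled mice was lost (adjusted p = 0.0550). Leaving out 1 mouse ended it for MRL/lpr replicate 4 (adjusted p = 0.0740), for Fn14ko-labelled replicates 1 to 4 (0.0515, 0.107, 0.109 and 0.118) and for MRL/+ replicates 3 and 4 (0.0538 and 0.0591), whereas the call against MRL/+ stood in all 12. With no filter and each channel scaled to the median of all its probe spots the log2 fold change against the Fn14ko-labelled mice was -0.072.

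**Figure D1:**
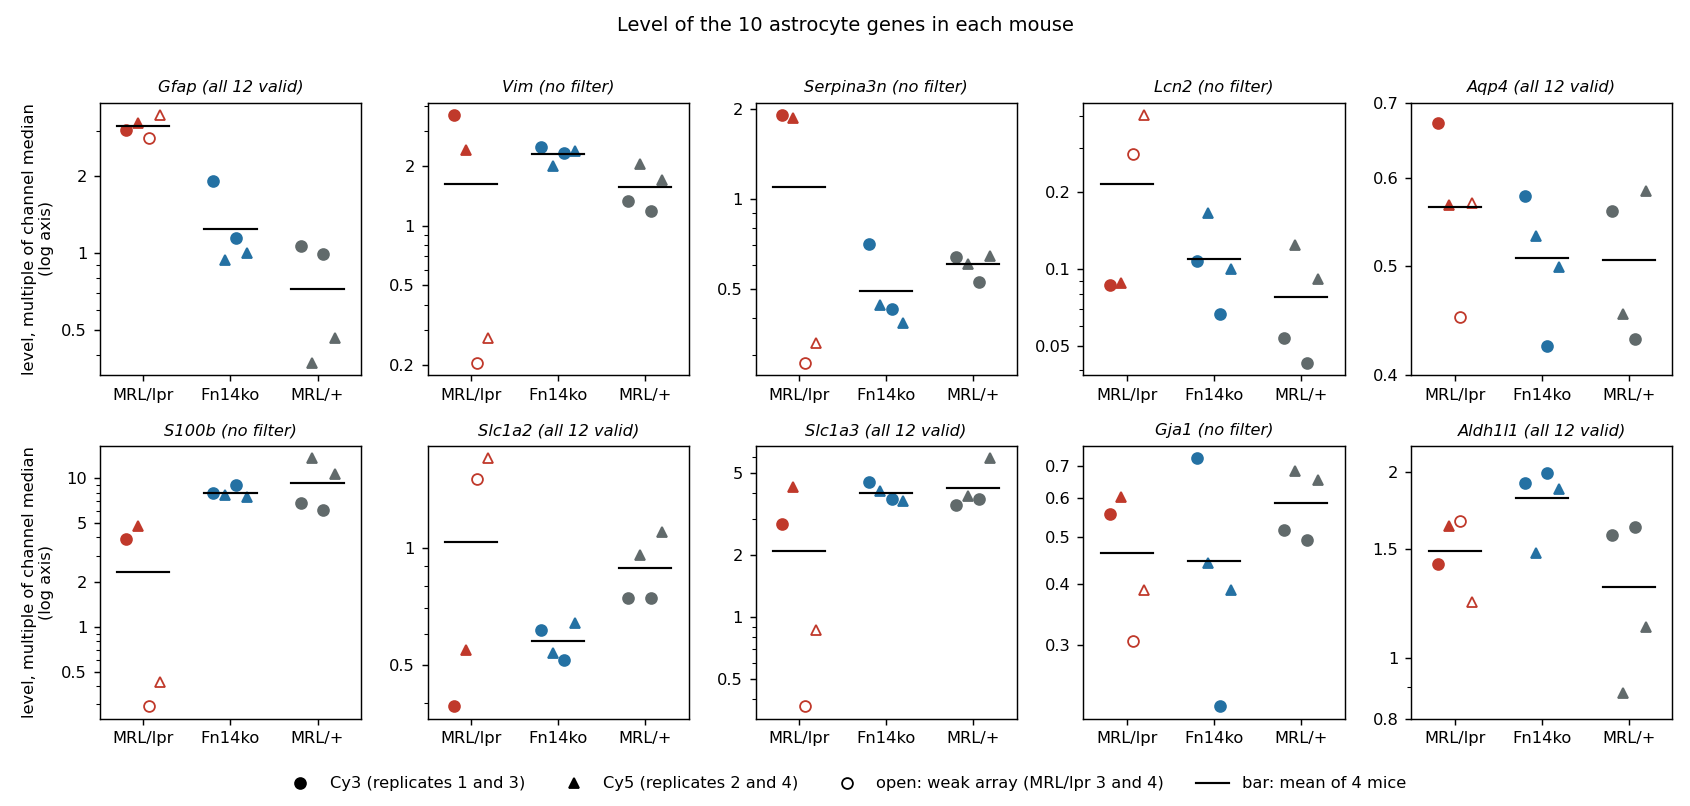
Level of each of the 10 astrocyte genes in each mouse, as a multiple of the channel median on a log axis that differs between panels. Circles are Cy3 and triangles Cy5 samples, open symbols are the weak array and bars are means of 4 mice. *Gfap* was between 2.82 and 3.47 in all 4 MRL/lpr mice, whereas *Vim*, *Serpina3n*, *S100b* and *Slc1a3* were low in the 2 weak-array mice and *Slc1a2* was high in them.

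The 2 valid *Gfap* probes read the strains differently. Probe A_52_P52303 was at 3.23, 3.70, 4.19 and 5.81 in MRL/lpr, 2.18, 1.15, 1.24 and 1.27 in the Fn14ko-labelled mice, and 0.823, 0.261, 0.777 and 0.327 in MRL/+, so that the 3 strains did not overlap. Taken alone it rose by a log2 fold change of 3.10 in MRL/lpr against MRL/+ (adjusted p = 0.00140 from limma). Probe A_55_P2157250 was at 2.81, 2.77, 1.46 and 1.13 in MRL/lpr, 1.64, 0.727, 1.04 and 0.723 in the Fn14ko-labelled mice, and 1.298, 0.482, 1.21 and 0.5996 in MRL/+. For this probe the strains overlapped, and MRL/lpr rose by a log2 fold change of 1.21 against MRL/+, just past the threshold (adjusted p = 0.0496). With array as a random block both calls were lost (adjusted p = 0.122 for A_52_P52303 and 0.298 for A_55_P2157250). The third probe, A_55_P2157245, was not valid in all 12 samples. Without the weak array the 3 probes gave 3.00, 1.93 and 1.82 for MRL/lpr against MRL/+, in the order A_52_P52303, A_55_P2157250 and A_55_P2157245, and all 3 passed the threshold. A_52_P52303 rose against the Fn14ko-labelled mice by 1.55 with all 12 mice (adjusted p = 0.0432, and 0.285 with the random block) and gave 1.206 (adjusted p = 0.111) without the weak array, where A_55_P2157250 and A_55_P2157245 rose by 1.43 (adjusted p = 0.0235) and 1.57 (adjusted p = 0.0227). In the Fn14ko-labelled mice against MRL/+, without the weak array, only A_52_P52303 passed, at 1.80 (adjusted p = 0.00688 from limma). There A_55_P2157250 gave 0.50 (adjusted p = 0.188) and A_55_P2157245 gave 0.25 (adjusted p = 0.528).

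The ratio of 2 probes within a sample is free of the scaling of its channel. The ratio of A_52_P52303 to A_55_P2157250 stood in MRL/lpr at 1.15, 1.34, 2.87 and 5.12, beside 1.33, 1.58, 1.201 and 1.76 in the Fn14ko-labelled mice, and 0.634, 0.541, 0.642 and 0.545 in MRL/+. All 8 mice of the first 2 strains were above all 4 of MRL/+. An exact permutation test gave p = 0.0286 for each of MRL/lpr and the Fn14ko-labelled mice against MRL/+. Over the 24 probe-pair comparisons of the astrocyte genes with more than 1 probe the adjusted p was 0.114, and none passed. The weak array gave the 2 highest of these ratios.

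**Figure D2:**
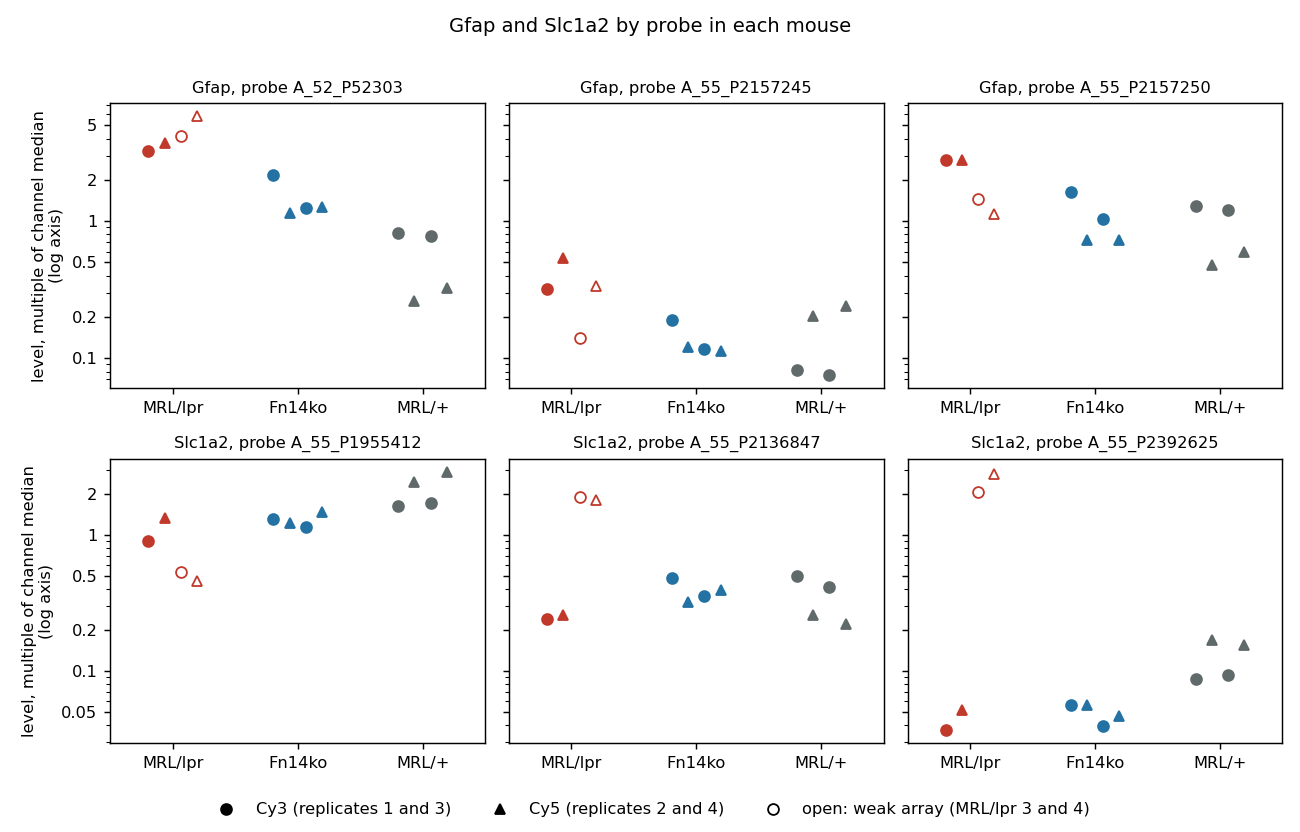
Level of the 3 *Gfap* and the 3 *Slc1a2* probes in each mouse, as a multiple of the channel median on a log axis. Circles are Cy3 and triangles Cy5 samples, and open symbols are the weak array. The 3 strains are apart for *Gfap* probe A_52_P52303, and 2 *Slc1a2* probes read between 1.82 and 2.81 in the weak array and at most 0.496 elsewhere.

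*Vim* encodes vimentin, the second filament protein of reactive astrocytes. MRL/lpr mice had levels of 3.59, 2.39, 0.205 and 0.273, Fn14ko-labelled mice of 2.49, 1.99, 2.30 and 2.37, and MRL/+ mice of 1.32, 2.03, 1.18 and 1.69. The 2 low values are those of the weak array, where *Vim* was not well above background, and they set the sign of the log2 fold change. The mean level was 1.61 in MRL/lpr, 2.29 in the Fn14ko-labelled mice and 1.56 in MRL/+. With all 12 mice the log2 fold change of MRL/lpr was -0.87 against MRL/+ (adjusted p = 0.664 from limma) and -1.45 against the Fn14ko-labelled mice (adjusted p = 0.203), and the latter passed on leaving out MRL/lpr replicate 1 (adjusted p = 0.0208) or 2 (0.0258). In the 10 mice outside the weak array *Vim* rose against MRL/+ in MRL/lpr, by 1.11 (SE 0.18, adjusted p = 0.00326), and in the Fn14ko-labelled mice, by 0.83 (SE 0.15, adjusted p = 0.00633). In both comparisons its groups did not overlap. Of the 17936 genes in this fit, 2501 lay wholly above and 3589 wholly below in MRL/lpr against MRL/+. For the Fn14ko-labelled mice against MRL/+ these counts were 1684 and 1632.

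*Serpina3n* encodes a secreted serine protease inhibitor of reactive astrocytes. MRL/lpr mice had levels of 1.92, 1.87, 0.283 and 0.330, Fn14ko-labelled mice of 0.710, 0.441, 0.427 and 0.385, and MRL/+ mice of 0.638, 0.606, 0.529 and 0.646. The MRL/lpr mice outside the weak array were above all 8 others, and those of the weak array, where the probe was not well above background, were below all 8. The log2 fold change with all 12 mice was 0.33 (adjusted p = 0.987 from limma) against MRL/+ and 0.67 (adjusted p = 0.313) against the Fn14ko-labelled mice. *Serpina3n* rose without the weak array, by 1.81 (SE 0.21, 3.51-fold, adjusted p = 0.000474) and by 1.90 (SE 0.21, 3.73-fold, adjusted p = 0.000609) in these comparisons. The Fn14ko-labelled mice and MRL/+ differed by -0.09 (SE 0.17, adjusted p = 0.728). Of the 17936 genes in this fit, 2501 lay wholly above and 3589 wholly below in MRL/lpr against MRL/+. Against the Fn14ko-labelled mice these counts were 2895 and 3748.

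*Lcn2* encodes lipocalin 2, an iron-binding acute-phase protein. MRL/lpr mice had levels of 0.0865, 0.0879, 0.283 and 0.403, Fn14ko-labelled mice of 0.108, 0.165, 0.0668 and 0.0999, and MRL/+ mice of 0.0538, 0.124, 0.0429 and 0.0911. It was well above background in 2 of 4 MRL/lpr mice, 4 of 4 Fn14ko-labelled mice and 2 of 4 MRL/+, and the 2 highest values are those of the weak array, where it was not. MRL/lpr against MRL/+ gave a log2 fold change of 1.26 (SE 0.55, adjusted p = 0.230 from limma), and 0.45 (adjusted p = 0.309) without the weak array. Leaving out MRL/lpr replicate 2 alone, it passed at 1.75 (adjusted p = 0.0336), and at 1.205 (adjusted p = 0.0422) against the Fn14ko-labelled mice. In the 10 mice outside the weak array *Lcn2* rose by 0.80 (SE 0.24, adjusted p = 0.0417) in the Fn14ko-labelled mice against MRL/+, with overlapping groups.

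Promoter windows of the genes that rose in MRL/lpr without the weak array are shown for *Gfap*, *Serpina3n* and *Vim*, from 250 bases before to 30 after the RefSeq start (GRCm38.p6). They were searched on both strands for TTCNNNGAA, the core of the STAT site, and TGANTCA, the core of the AP-1 site, which read the same on either strand, and capitals mark a match.
Gfap, chr11:102897171-102897450, minus strand: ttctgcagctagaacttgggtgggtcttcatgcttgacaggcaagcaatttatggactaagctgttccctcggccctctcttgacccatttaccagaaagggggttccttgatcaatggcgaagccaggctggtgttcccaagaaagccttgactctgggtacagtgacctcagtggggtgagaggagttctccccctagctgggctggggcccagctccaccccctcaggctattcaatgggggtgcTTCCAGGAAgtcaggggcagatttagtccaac
Serpina3n, chr12:104406458-104406737, plus strand: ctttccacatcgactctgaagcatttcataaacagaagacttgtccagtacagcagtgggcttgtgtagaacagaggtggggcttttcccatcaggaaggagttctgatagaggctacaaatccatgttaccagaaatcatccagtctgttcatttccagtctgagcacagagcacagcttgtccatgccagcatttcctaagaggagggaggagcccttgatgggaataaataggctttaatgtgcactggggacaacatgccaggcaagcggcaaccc
Vim, chr2:13574061-13574340, plus strand: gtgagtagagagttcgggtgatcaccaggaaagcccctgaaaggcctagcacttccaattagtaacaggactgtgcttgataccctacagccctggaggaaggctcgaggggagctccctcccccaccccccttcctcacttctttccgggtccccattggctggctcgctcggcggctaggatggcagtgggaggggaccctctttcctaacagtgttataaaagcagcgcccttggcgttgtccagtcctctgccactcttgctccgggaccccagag
The *Gfap* window holds 1 match of TTCNNNGAA, which begins 2 bases before the start, and the other 2 windows hold neither motif. Windows of the other astrocyte genes except *Aqp4* were searched too. That of *Slc1a3* holds 1 match of TTCNNNGAA and that of *Gja1* 1 of TGANTCA, and neither gene was called higher in MRL/lpr. Those of *Lcn2*, *S100b*, *Slc1a2* and *Aldh1l1* hold neither motif. Of 32851 promoter windows of this length, 7.83% hold TTCNNNGAA and 7.46% hold TGANTCA. The matches do not overlap in the windows shown.

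*S100b* fell in MRL/lpr against the Fn14ko-labelled mice. It encodes a calcium-binding protein and was at 3.92, 4.75, 0.292 and 0.426 in MRL/lpr, 7.90, 7.68, 8.94 and 7.51 in the Fn14ko-labelled mice, and 6.87, 13.6, 6.15 and 10.7 in MRL/+. All 4 MRL/lpr mice were below all 8 others, those of the weak array by far the most, where the probe was not well above background. MRL/lpr fell by 2.69 on the log2 scale against the Fn14ko-labelled mice (SE 0.74, adjusted p = 0.0457 from limma; exact permutation p = 0.0286). Against MRL/+ the log2 fold change was -2.84 (SE 0.74, adjusted p = 0.0612 from limma; exact permutation p = 0.0286). The falls were smaller without the weak array and passed in both comparisons, at -0.98 (SE 0.18, adjusted p = 0.00892) and -0.87 (SE 0.18, adjusted p = 0.0110). The call with all 12 mice was lost with array as a random block (adjusted p = 0.102) and with quantile normalization (adjusted p = 0.141), and with the replicate number as a block *S100b* fell in both comparisons (adjusted p = 0.0279 and 0.0284). Leaving out MRL/lpr replicate 1 or 2 kept the call against the Fn14ko-labelled mice and added that against MRL/+ (adjusted p = 0.00691 and 0.0106), and leaving out any 1 of the other 10 mice ended it (adjusted p = 0.0639 to 0.127). In MRL/+ the Cy5 mice read 1.85 times the Cy3 mice. Of the 29608 genes in the fit with no filter, 1724 lay wholly below and 537 wholly above in MRL/lpr against MRL/+. Against the Fn14ko-labelled mice these counts were 1441 and 4002.

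*Slc1a2* encodes GLT-1, the main glutamate transporter of forebrain astrocytes. MRL/lpr mice had levels of 0.392, 0.547, 1.505 and 1.70, Fn14ko-labelled mice of 0.616, 0.537, 0.516 and 0.640, and MRL/+ mice of 0.742, 0.957, 0.745 and 1.10. The weak array was above all 4 MRL/+ mice and the other MRL/lpr array below them, and the log2 fold change against MRL/+ was -0.02 (SE 0.42, adjusted p = 0.973 from limma). *Slc1a2* fell by 0.75 on the log2 scale against MRL/+ without the weak array (SE 0.18, adjusted p = 0.0218). The Fn14ko-labelled mice were below all 4 MRL/+ mice, at -0.60 (SE 0.42, adjusted p = 0.585 from limma; exact permutation p = 0.0286) and at -0.35 (adjusted p = 0.114) without the weak array.

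The high values of the weak array came from 2 of the 3 *Slc1a2* probes. A_55_P2136847 read 1.91 and 1.82 there and between 0.222 and 0.496 in the other 10 samples, and A_55_P2392625 read 2.07 and 2.81 there and between 0.0365 and 0.169 elsewhere. A_55_P1955412 went the other way, with 0.531 and 0.463 in the weak array, 0.897 and 1.33 in the other MRL/lpr mice, 1.15 to 1.48 in the Fn14ko-labelled mice and 1.64 to 2.92 in MRL/+. For this probe MRL/lpr fell by 1.53 against MRL/+ (adjusted p = 0.0191 from limma, and 0.261 with array as a random block), and by 0.79 (adjusted p = 0.0186) without the weak array. The 3 probes then gave -0.79, -0.24 and -1.32, of which the first and the last passed.

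*Slc1a3* encodes GLAST, the other astrocyte glutamate transporter. MRL/lpr mice had levels of 2.83, 4.30, 0.369 and 0.866, Fn14ko-labelled mice of 4.55, 4.09, 3.73 and 3.66, and MRL/+ mice of 3.50, 3.86, 3.75 and 5.89. The MRL/lpr mice outside the weak array were at 2.83 and 4.30, beside 3.50 to 5.89 in the other strains, and those of the weak array were below all others. The log2 fold change of MRL/lpr against MRL/+ was -1.57 (SE 0.60, adjusted p = 0.0954 from limma), and -0.09 (SE 0.24, adjusted p = 0.812) without the weak array. Leaving out MRL/lpr replicate 1 or 2 made it pass, with adjusted p = 0.0228 and 0.0205 against MRL/+ and 0.0267 and 0.0185 against the Fn14ko-labelled mice.

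*Aqp4*, the water channel of the end-feet, varied least of the 10: every sample lay between 0.424 and 0.672, and the means were 0.565 ± 0.0904, 0.508 ± 0.0646 and 0.507 ± 0.0762 in MRL/lpr, the Fn14ko-labelled mice and MRL/+ (SD, n = 4 each). The strains overlapped, with log2 fold changes of 0.15, 0.15 and 0.01 (SE 0.22 each) in the comparisons MRL/lpr against MRL/+, MRL/lpr against Fn14ko and Fn14ko against MRL/+. Its 2 probes differed: A_55_P2031939 rose by 0.92 in MRL/lpr against MRL/+ (adjusted p = 0.0475 from limma, and 0.320 with array as a random block), while A_55_P2000369 gave -0.38 (adjusted p = 0.307). Their ratio, A_55_P2000369 over A_55_P2031939, was 0.677 to 1.36 in MRL/lpr, 1.04 to 1.66 in the Fn14ko-labelled mice and 1.80 to 3.73 in MRL/+, with an adjusted p of 0.114 over the 24 probe-pair comparisons by an exact permutation test.

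*Aldh1l1*, a folate enzyme used as a general astrocyte marker, was at 1.42, 1.64, 1.66 and 1.24 in MRL/lpr, 1.92, 1.48, 1.99 and 1.88 in the Fn14ko-labelled mice, and 1.58, 0.879, 1.63 and 1.12 in MRL/+. The strains overlapped in all 3 comparisons. The Fn14ko-labelled mice against MRL/+ gave a log2 fold change of 0.52 (SE 0.21, adjusted p = 0.267 from limma), and *Aldh1l1* rose by 0.69 (SE 0.21, adjusted p = 0.0403) without the weak array. Its second probe, A_66_P128931, was not valid in all 12 samples. Without the weak array this probe gave -0.06 (adjusted p = 0.913 from limma) in the Fn14ko-labelled mice against MRL/+. The other, A_55_P1983733, gave 0.77 (adjusted p = 0.0393).

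*Gja1* encodes connexin 43, the gap junction protein that couples astrocytes. Its single probe is printed 10 times on each array, and MRL/lpr mice had levels of 0.557, 0.602, 0.305 and 0.388, beside 0.724, 0.442, 0.224 and 0.389 in the Fn14ko-labelled mice and 0.516, 0.682, 0.492 and 0.653 in MRL/+. The strains overlapped, and the log2 fold changes were -0.38, 0.13 and -0.50 (SE 0.34 each) in the comparisons MRL/lpr against MRL/+, MRL/lpr against Fn14ko and Fn14ko against MRL/+. The identical spots within a sample differed by 1.67 to 6.89 times between the lowest and the highest.

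**Figure D3:**
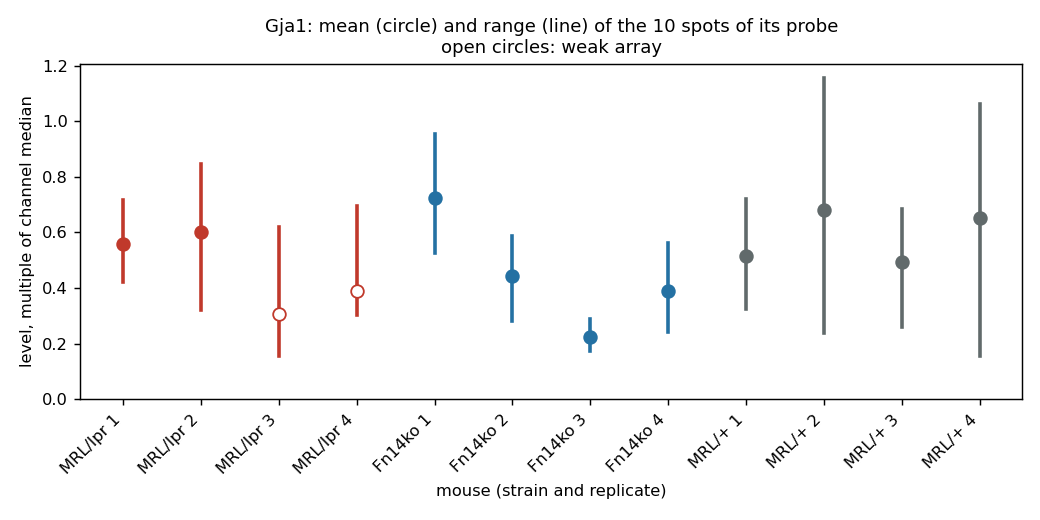
Level of *Gja1* in each mouse, as a multiple of the channel median. Circles are the mean and lines the range of the 10 spots of the same probe, and open circles are the weak array. The range within 1 sample reached 6.89 times, in MRL/+ replicate 4.

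Counted over the 10 genes with all 12 mice, limma called *Gfap* in MRL/lpr against MRL/+, *Gfap* and *S100b* in MRL/lpr against the Fn14ko-labelled mice, and 0 genes in the Fn14ko-labelled mice against MRL/+. At an unadjusted p under 0.05 the counts were 4, 3 and 2. Of the 8864 genes valid in the 12 samples, 3242, 3210 and 1352 had such a p. With no filter 5615, 8362 and 2521 of 29608 did. The methods' t-test gave 2, 2 and 2 of the 10 before and 0, 0 and 0 after adjustment. Before adjustment it gave 1403, 1155 and 1493 of the 8864, and 2272, 2196 and 2322 of the 29608. Beside the limma calls after adjustment, 9.17%, 3.98% and 0.519% of all genes valid in the 12 samples were called in the 3 comparisons, in either direction, and 2.46%, 6.83% and 0.145% of all genes with no filter. Of the 5 astrocyte genes valid in all 12 samples, 1 had groups that did not overlap in each comparison, *Gfap* in the first and second and *Slc1a2* in the third. The share of all such genes was 16.1%, 21.5% and 19.9%, so that 1 of 5 is close to the background.

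Without the weak array, 5 of the 10 genes were called in MRL/lpr against MRL/+: *Gfap*, *Vim* and *Serpina3n* rose, and *S100b* and *Slc1a2* fell. The background was 15.7% of all genes. Against the Fn14ko-labelled mice, *Gfap* and *Serpina3n* rose and *S100b* fell, 3 of 10 beside 9.12%. In the Fn14ko-labelled mice against MRL/+, *Gfap*, *Vim*, *Lcn2* and *Aldh1l1* rose, 4 of 10 beside 21.1%. The MRL/lpr mice enter the first 2 comparisons and MRL/+ the first and the third, so these calls are not independent. Over all genes the median log2 fold change was -0.10, -0.04 and -0.07 in this fit. In the fit with no filter it was 0.21, 1.34 and -0.97, and the values of *Vim*, *Serpina3n*, *Lcn2*, *S100b* and *Gja1* with all 12 mice stand beside that shift.

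**Figure D4:**
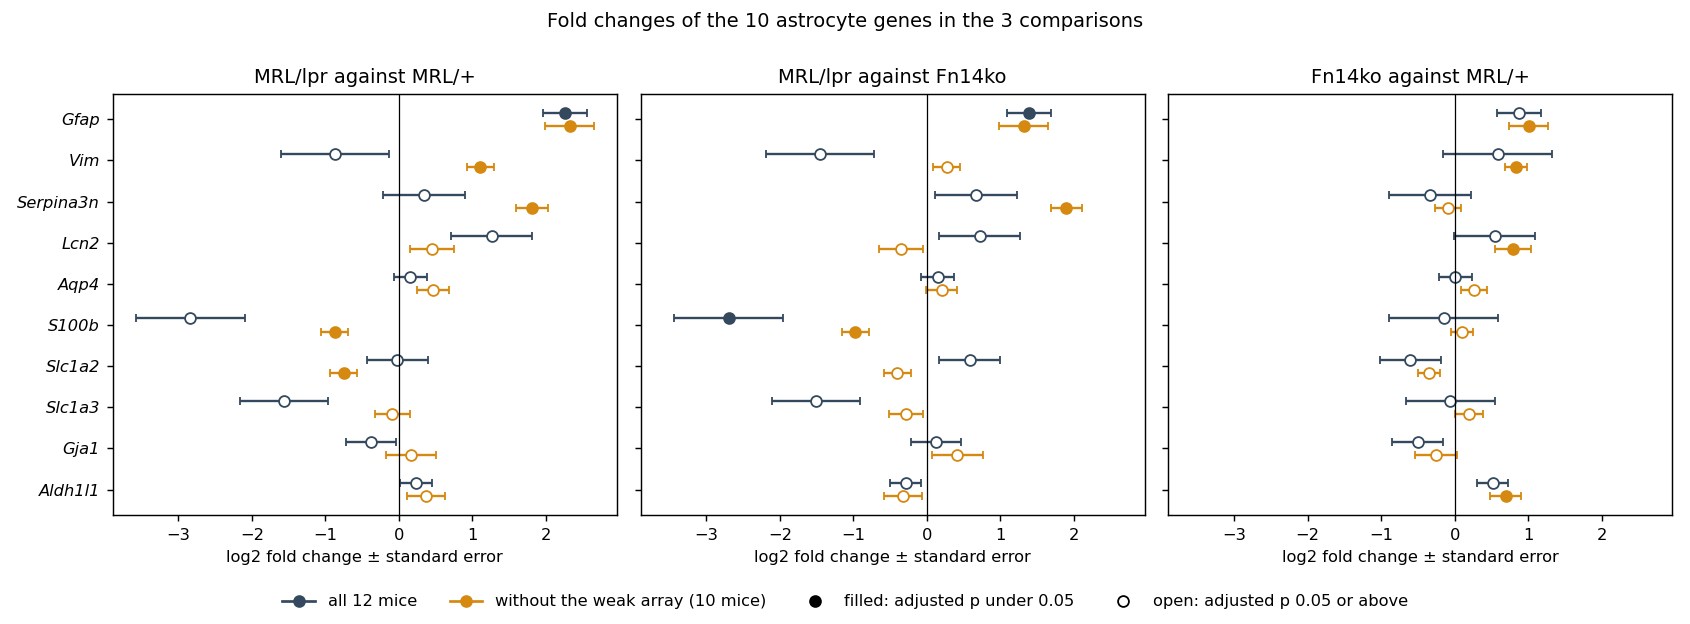
Log2 fold change and standard error of the 10 astrocyte genes in the 3 comparisons, with all 12 mice (dark) and in the 10 mice outside the weak array (orange). Filled points passed an adjusted p of 0.05. *Gfap* went from 2.26 to 2.32 between the fits, whereas *Vim* went from -0.87 to 1.11 and *Serpina3n* from 0.33 to 1.81 in MRL/lpr against MRL/+.

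Other astrocyte genes were counted from lists. Of 20 genes of resting astrocytes, 17 were valid in all 12 samples, and 2 fell in MRL/lpr against MRL/+: *Gpr37l1*, a receptor of astrocytes, by 1.46 (adjusted p = 0.00811 from limma), and *Acsbg1*, an acyl-CoA synthetase, by 1.68 (adjusted p = 0.0250), beside 9.17% of all genes called. The median of the 17 was -0.50, compared with -0.01 over all genes. Against the Fn14ko-labelled mice 1 fell, the growth factor receptor *Fgfr3*, by 1.63 (adjusted p = 0.0450), and between the Fn14ko-labelled mice and MRL/+ none passed. The call of *Fgfr3* was lost without the weak array (-1.04, adjusted p = 0.0878). All 20 were tested without the weak array. Then 1 rose and 3 fell in MRL/lpr against MRL/+, with a median of -0.06 beside -0.10 over all genes, *Acsbg1* fell against the Fn14ko-labelled mice (-0.69, adjusted p = 0.0493), and 3 rose and 2 fell between the Fn14ko-labelled mice and MRL/+. These are 4, 1 and 5 of 20, beside 15.7%, 9.12% and 21.1% of all genes. *Gpr37l1* (-1.303, adjusted p = 0.00294), *Acsbg1* (-0.80, adjusted p = 0.0192) and *Hepacam*, an adhesion protein (-0.89, adjusted p = 0.0271), fell in the first of these. *Gjb6*, which encodes connexin 30 (1.16, adjusted p = 0.00507), and *Ndrg2* (1.43, adjusted p = 0.00820) rose in the last, while *Gpr37l1* fell (-0.88, adjusted p = 0.00910).

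Genes induced in reactive astrocytes were mostly dim. Of 9 pan-reactive genes 2 were valid in all 12 samples, of 11 A1-type genes 3, and of 12 A2-type genes 2, the names that the field gives to the reactions to endotoxin and to ischemia. Among all 12 mice *Serping1*, a complement inhibitor of the A1-type list, rose by 1.27 in MRL/lpr against MRL/+ (SE 0.34, adjusted p = 0.0430 from limma), and none of the other 6 valid genes of the 3 lists passed in any comparison. With no filter, 0 of 11 A1-type genes passed in that comparison and 1 of 11 rose against the Fn14ko-labelled mice, and none of the pan-reactive and A2-type genes passed. In the 10 mice outside the weak array 7, 9 and 6 were tested. In this fit 15.7% of all genes were called in MRL/lpr against MRL/+, and the median log2 fold change over all genes was -0.10. In MRL/lpr against MRL/+, 4 of 7 pan-reactive genes rose, among them *Cp*, which encodes ceruloplasmin (0.96, adjusted p = 0.0342), the small heat shock protein gene *Hspb1* (0.78, adjusted p = 0.0431) and the oncostatin M receptor gene *Osmr* (0.86, adjusted p = 0.0444), with a median of 0.78. Of the A1-type genes 3 of 9 rose, *Serping1* (1.53, adjusted p = 0.00276) and the MHC class I genes *H2-T23* (1.31, adjusted p = 0.0149) and *H2-D1* (2.54, adjusted p = 0.0244), with a median of 1.11. Of the A2-type genes 2 of 6 rose, *Cd14*, a co-receptor for endotoxin (0.93, adjusted p = 0.0116), and *Tm4sf1* (0.82, adjusted p = 0.0369). Of these, *Serping1*, *H2-D1*, *Osmr* and *Cd14* were well above background in 2 of 4 MRL/+ mice and *Cp* in 3 of 4. *H2-T23*, *Hspb1* and *Tm4sf1* were so in 4 of 4. MHC class I genes and *Cd14* are made by other cells too.

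Against the Fn14ko-labelled mice, none of the pan-reactive and A2-type genes passed without the weak array, and of the A1-type genes *Serping1* rose (0.90, adjusted p = 0.0470) and *Fbln5*, an elastic fibre protein gene, fell (-0.67, adjusted p = 0.0308). Between the Fn14ko-labelled mice and MRL/+, 4 of 9 A1-type genes rose, among them *Fbln5* (0.83, adjusted p = 0.00401), *H2-T23* (0.91, adjusted p = 0.0258) and *H2-D1* (1.92, adjusted p = 0.0286), and 1 of 7 pan-reactive genes, *S1pr3*, fell (-0.71, adjusted p = 0.0267). In these comparisons, in that order, 9.12% and 21.1% of all genes were called. Of 12 genes of filaments and of the pathways that drive reactivity, 7 were valid in all 12 samples. In MRL/lpr against MRL/+ the filament gene *Nes* fell by 1.26 (adjusted p = 0.0471) and the transcription factor gene *Stat3* by 1.11 (adjusted p = 0.0473), and none passed in the other comparisons. *Nes* fell in MRL/lpr against both other strains without the weak array, by 1.56 (adjusted p = 0.00145) and 1.27 (adjusted p = 0.00689), and *Stat3* gave -0.29 (adjusted p = 0.231). With array as a random block, run on the genes of these 5 lists that were valid in all 12 samples, none passed in any comparison.

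**Figure D5:**
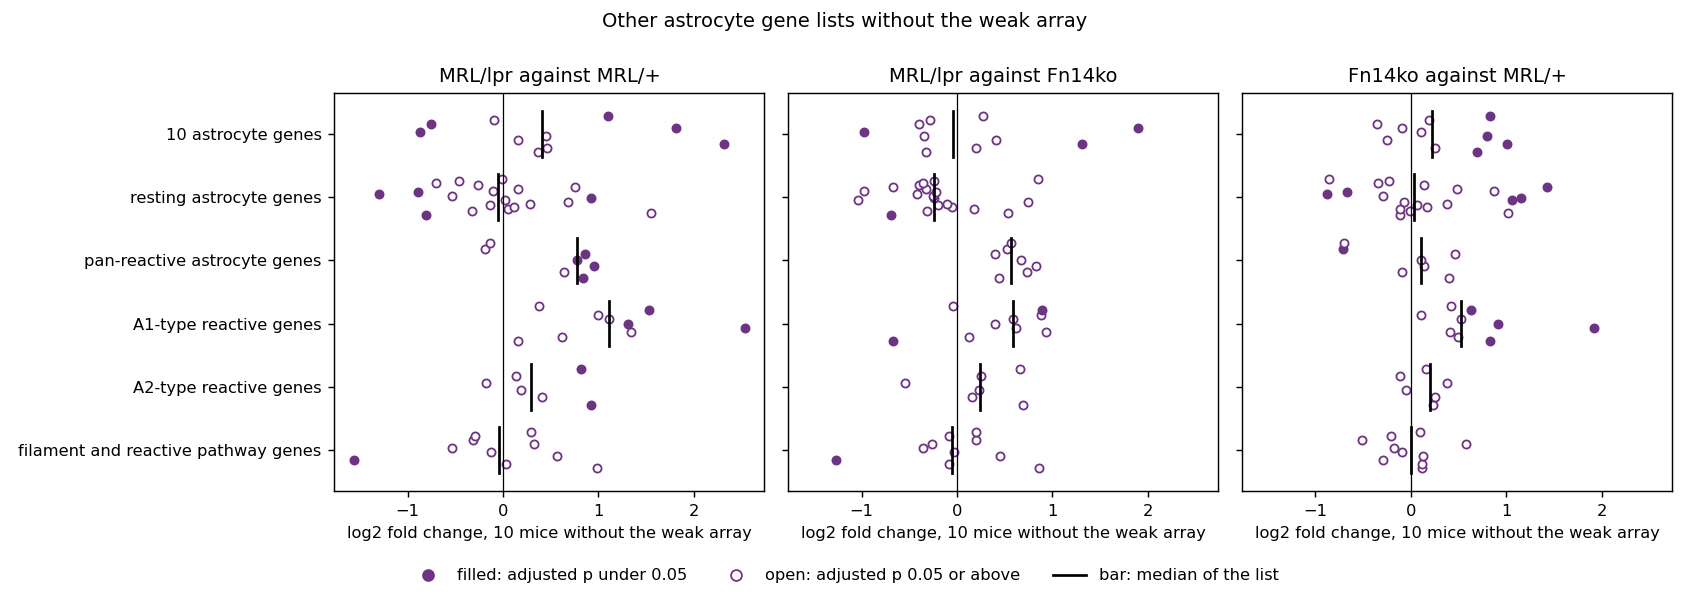
Log2 fold change of each gene of the 10 astrocyte genes and of 5 other astrocyte lists in the 10 mice outside the weak array, in the 3 comparisons. Filled points passed an adjusted p of 0.05 and bars are list medians. The median of the pan-reactive and A1-type lists was 0.78 and 1.11 in MRL/lpr against MRL/+, that of the resting genes -0.06 and that of all genes -0.10.

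The 5 genes whose pattern was most like that of *Gfap*, by the root mean square difference of log2 levels centred over the 12 samples, were an unnamed transcript (ENSMUST00000231714.1, 0.304), *Bhlhe22* (0.353), *Sipa1l3* (0.366), *Dcn* (0.394) and *Lypd1* (0.419), out of 8863 genes with a median of 1.33. *Dcn* encodes decorin, a proteoglycan of meninges and vessels, and *Bhlhe22* a transcription factor of neurons. *Dcn* was between 1.40 and 2.84 in MRL/lpr, 0.467 and 0.732 in the Fn14ko-labelled mice and 0.303 and 0.530 in MRL/+, so it had, like *Gfap*, no overlap between MRL/lpr and the others. In the 10 samples outside the weak array these 5 ranked 10, 5, 1, 7 and 11 among all genes valid there. The 5 were chosen by the 12 samples, which include those 10, so neither the ranks nor the lack of overlap in *Dcn* is a separate check.

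Markers of other cells and regions moved with strain as well, and their part in the results above was not tested. Without the weak array 15.7% of all genes were called in MRL/lpr against MRL/+ and 9.12% against the Fn14ko-labelled mice. With all 12 mice these shares were 9.17% and 3.98% of the valid genes. The 10 choroid plexus and ependymal markers that were valid without the weak array, of 12, summed to 50.4 to 153 times the channel median in MRL/lpr, 5.28 to 25.9 in the Fn14ko-labelled mice and 5.45 to 9.49 in MRL/+, and 7 of them rose in MRL/lpr against MRL/+ and 6 against the Fn14ko-labelled mice. In all 12 mice, 1 of 4 rose in each, *Ttr*, which encodes transthyretin (3.33, adjusted p = 0.0399, and 3.55, adjusted p = 0.0454, from limma). Without the weak array the mean of *Ttr* was 81.7 in MRL/lpr, 6.18 in the Fn14ko-labelled mice and 3.44 in MRL/+, so it led the sum in MRL/lpr. *F5* and *Tmem212* were well above background in fewer than 6 of the 12 samples. The 4 red cell markers summed to 199.9 to 283 in MRL/lpr, 37.0 to 135 in the Fn14ko-labelled mice and 57.7 to 81.0 in MRL/+, 2 of 4 rose in MRL/lpr against MRL/+, and 3 of 4 rose when set against the Fn14ko-labelled mice. Most of this sum was 1 hemoglobin gene, *Hba-a1*, with means of 230, 76.7 and 62.7 in the same order of strains.

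The 9 of 12 hippocampus markers that were valid without the weak array summed to 61.6 to 73.2 in MRL/lpr, 38.2 to 52.7 in the Fn14ko-labelled mice and 38.1 to 44.0 in MRL/+, and 6 of 9 rose in MRL/lpr against MRL/+ and 5 of 9 against the Fn14ko-labelled mice. *Bok* and *Zbtb20* rose with all 12 mice against MRL/+, by 1.18 (adjusted p = 0.0103) and 2.47 (adjusted p = 0.0174). *C1ql2*, *Zbtb20* and *Fibcd1* rose against the Fn14ko-labelled mice, by 2.89 (adjusted p = 0.0224), 2.17 (adjusted p = 0.0372) and 4.42 (adjusted p = 0.0393). The 12 striatum and thalamus markers summed to 19.9 to 21.3, 41.6 to 110 and 20.3 to 39.6 in the same order of strains, and 2 rose and 5 fell in MRL/lpr against the Fn14ko-labelled mice. With all 12 mice *Ppp1r1b*, of striatal neurons, fell by 1.85 (adjusted p = 0.0202) and *Tcf7l2*, of the thalamus, rose by 1.99 (adjusted p = 0.0330). Of the hippocampus markers 6 of 12 were well above background in at least 10 samples, and *Tdo2* in fewer than 6.

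In the 10 mice outside the weak array all 12 neuron markers were valid and summed to 238 to 313, 246 to 322 and 253 to 323 in MRL/lpr, the Fn14ko-labelled mice and MRL/+, the 12 microglia markers to 60.5 to 85.8, 59.5 to 65.4 and 66.2 to 81.7, and the 12 oligodendrocyte markers to 136 to 168, 104 to 161 and 97.9 to 165. The 9 of 10 endothelial markers that were valid summed to 30.7 to 36.8, 36.4 to 58.9 and 27.1 to 36.6. The 5 of 9 neutrophil markers that were valid summed to 5.65 to 8.22, 2.44 to 3.42 and 4.75 to 8.63, so that this sum was lower in the Fn14ko-labelled mice than in both other strains. Most of it was 1 gene, *Elane*, with means of 5.55, 1.79 and 5.50 in the same order of strains. *Cxcr2* was well above background in 0 of 12 samples. With all 12 mice, *Slc17a7*, the glutamate loader of neuronal vesicles, fell in MRL/lpr against MRL/+ by 2.27 (adjusted p = 0.00704), 1 of 12 neuron markers. The microglial receptor genes *P2ry12* (-1.02, adjusted p = 0.0366) and *Cx3cr1* (-1.02, adjusted p = 0.0454) fell, 2 of 10, and *Mog*, a myelin protein gene, rose by 1.45 (adjusted p = 0.0428), 1 of 11. Against the Fn14ko-labelled mice *P2ry12* fell by 1.07 (adjusted p = 0.0449) and *Elane*, a neutrophil protease gene, rose by 2.51 (adjusted p = 0.00977), while none of the 5 endothelial markers valid in all 12 samples passed in any comparison. With no filter 1 of 10 endothelial markers rose against the Fn14ko-labelled mice. With array as a random block none of these marker calls with all 12 mice stood, and the adjusted p was 0.0846 for *Slc17a7*, 0.0903 for *Elane*, 0.199 for *Zbtb20* against MRL/+, 0.275 for *Bok*, and 0.303 and 0.278 for *Ttr*.

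Between the Fn14ko-labelled mice and MRL/+ no marker of these cells and regions passed with all 12 mice, but several did in the 10 mice outside the weak array, the fit in which *Gfap*, *Vim*, *Lcn2* and *Aldh1l1* rose. Of 12 striatum and thalamus markers 5 rose, among them the neuropeptide genes *Penk* (1.46, adjusted p = 0.00917 from limma) and *Tac1* (1.97, adjusted p = 0.0110), and 1 fell, *Tcf7l2* (-1.73, adjusted p = 0.000576). Of 9 endothelial markers 3 rose, among them *Esam*, an adhesion molecule gene (1.39, adjusted p = 0.00552), and *Ly6c1* (0.95, adjusted p = 0.0106), and 2 fell, among them the VEGF receptor gene *Kdr* (-1.09, adjusted p = 0.00321). Hippocampus markers split into 2 that rose and 2 that fell of 9, 2 of 12 oligodendrocyte markers and 1 of 10 choroid plexus and ependymal markers rose, and 1 rose and 2 fell of 12 neuron markers. Of the microglia, neutrophil and red cell markers 1 each fell. The share of all genes called there was 21.1%.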

How the data were processed

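The members and gene lists were chosen with earlier results of these data known. Per the labels, hippocampal RNA was labelled with Cy3 or Cy5. The authors scanned the arrays, and the deposited Agilent Feature Extraction 12.1 output holds linear intensity values of both dyes at every spot, with no scaling between channels. Positions (mm9) and symbols are those of the array's annotation.

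From these files, background was subtracted, spots with foreground under 2 times background or a flag for non-uniform or population outliers were left out, 10877 spots then remained in all 12 samples, and their median in a channel scaled that channel. Means were taken over replicate spots, then over a gene's probes. In the fit with no filter the same scaling was used and 1% of that median was the floor. That scale and the levels without the weak array, which are relative to another median, were not compared with each other. Tests on log2 values used lmFit, contrasts and eBayes with a trend from limma 3.58.1 (R 4.3.3), with dye as a covariate, Benjamini-Hochberg adjustment over all genes and a threshold of 0.05. Random blocks used statmod 1.5.0. Exact permutation tests were two-sided and unadjusted unless stated, and treat the mice as independent. Nothing says that mice were from separate litters, and 2 share each array. The scripts were tested on simulated data. The number of arrays limits the precision.

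The 10 astrocyte genes are named in every comparison. Of the 14 lists (159 genes, all on the array, 1 matched by a synonym), up to 3 genes with the smallest adjusted p under 0.05 are named, and the 5 genes most like *Gfap*. *Stat3*, *F5*, *Tmem212*, *Tdo2* and *Cxcr2* are also named in places outside this rule, chosen after their values were seen. Marker lists without the weak array are given by counts and sums, with genes named for 2 of them in the last comparison. *Elane*, *Ttr* and *Hba-a1* are named there for their part in the sums. The alternatives were other background corrections, scalings, blocks, array weights, the methods' t-test, single probes and samples left out. RefSeq promoters came from GRCm38.p6. The remaining steps ran in Python 3.11.15 with scipy 1.17.1.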

Additional observations from a re-analysis of the deposited data

Results flagged for a closer look

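*Slc1a3* in MRL/+ had 1 mouse far from the others: replicate 4 was at 5.89 times the channel median and the other 3 mice at 3.50 to 3.86, a gap of 0.849 of the group's range. By Dixon's test it was the only 1 of 30 groups of 4 mice to stand apart, and chance flags about 1 in 20.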

How the results depend on the processing

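With all 12 mice 1, 2 and 0 of the 10 genes were called in MRL/lpr against MRL/+, MRL/lpr against Fn14ko and Fn14ko against MRL/+. The count for the first comparison was 2 with normexp, with Agilent's processed signal, with no dye term and with the replicate number as a block, 6 with estimated array weights, 5 without the weak array (with or without an array block), and 0 with array as a random block, with the methods' t-test and with the median of all probe spots. For the second it was 1 with quantile normalization, with the replicate block and with the median of all probe spots, 4 with array weights, and 0 with the random block and the methods' t-test. For the third it was 6 with array weights and 4 without the weak array, with or without an array block. Without the weak array this block had a consensus correlation of -0.265. Calls over all genes then went from 2818 to 5135, from 1636 to 2847 and from 3785 to 6412. The block is therefore no stricter check of the counts without the weak array. With array weights, 1450, 903 and 3407 of the 8864 valid genes were called in the 3 comparisons. With no filter they called 16533, 25188 and 21054 of the 29608 genes, so the counts of astrocyte genes with array weights stand beside a high background. The estimation of the array weights did not reach its convergence tolerance in every fit. Leaving out 1 mouse at a time gave 1 to 4, 0 to 5 and 0 to 0 calls. The largest counts came without MRL/lpr replicate 2 (4 and 5) or replicate 1 (3 and 4), when *S100b*, *Slc1a3* (adjusted p = 0.0205 and 0.0228 against MRL/+), *Vim* and *Lcn2* were gained in part.

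*Vim* in MRL/lpr against MRL/+ reversed to 1.11 without the weak array, with or without an array block. *Gfap* in MRL/lpr against Fn14ko reversed to -0.072 with no filter and the median of all probe spots, and the cause was not tested. *Gfap* in MRL/lpr against MRL/+ lost its call with the random block (adjusted p = 0.207), the methods' t-test (adjusted p = 0.0768) and the median of all probe spots (1.60, adjusted p = 0.259). Of 765 tested alternatives of single genes, 26 lost a call, 43 gained one and 3 reversed, and 60 uncalled values changed sign. The median of all probe spots and the array block without the weak array were chosen after seeing the data.

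The replicate numbers do not pair mice: deviations of same-numbered samples correlated at -0.396 to 0.501. With the replicate number as a block the calls over the genes valid in all 12 samples were 506, 179 and 0, compared with 813, 353 and 46. Array as a random block (consensus correlation 0.71) left 7, 4 and 0 calls. On the weak array, *Vim*, *Serpina3n*, *Lcn2* and *S100b* were not well above background, which limits their values with all 12 mice.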

Other observations

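In MRL/+, the strain whose Cy5 samples were dim, several astrocyte genes read differently in the 2 dyes. The Cy5 mice were below the Cy3 mice by 2.48 times for *Gfap* and 1.62 times for *Aldh1l1*, and above them by 2.21 times for *Lcn2*, 1.85 times for *S100b* and 1.48 times for *Vim*. In the Fn14ko-labelled mice the gaps of *Gfap*, *Aldh1l1* and *Lcn2* had the same direction, at 1.53, 1.17 and 1.52 times. Those of *S100b* and *Vim* went the other way, with the Cy5 mice below the Cy3 mice by 1.11 and 1.10 times. The ratio of *Gfap* probes A_52_P52303 and A_55_P2157245 was 10.1 and 10.3 in the Cy3 mice and 1.29 and 1.35 in the Cy5 mice of MRL/+, whereas it was 9.55 to 11.4 in all 4 Fn14ko-labelled mice. Each dye holds different mice, so dye and mouse cannot be told apart within a strain.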
